A study of Homo sapiens with 2 samples.

Results

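Deep intronic peaks are the IGF2BP3 LACE-seq peaks that lie wholly inside the span of a protein-coding gene and have no annotated exon of any gene or transcript within 500 bp of either edge. By this rule, applied to the hg38 coordinates with the GENCODE 44 annotation, 577 of 21142 peaks of replicate 1 (2.73%, 95% Wilson interval 2.52 to 2.96) and 431 of 20799 peaks of replicate 2 (2.07%, 1.89 to 2.27) were deep intronic. The libraries were 2 replicates of 1 group, labelled IGF2BP3_LACE, from OE-19 cells, an established line of adenocarcinoma of the esophagogastric junction (AEG) without a stated treatment or genetic change. Neither an input nor an IgG library was part of the analysis. LACE-seq crosslinks RNA to protein with UV light, pulls down the protein, here IGF2BP3, and sequences the ends of the amplified cDNA, so that a peak is a place where reads pile up above the local background. A single line is 1 genetic background, and nothing in the labels says whether the replicates were separate cultures, so the spread between them may be technical.

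IGF2BP3 is an oncofetal RNA-binding protein of the insulin-like growth factor 2 mRNA-binding family, which works mostly in the cytoplasm, where it binds mature mRNAs and is known for keeping them from decay. The study treats it as a reader of N6-methyladenosine (m6A), a base mark that lies mostly in exons near stop codons and in 3′ UTRs, and the family is also known to bind CA-rich RNA. Introns are removed in the nucleus soon after transcription and are mostly degraded. They also hold much sequence that did not arise as part of the host gene, including Alu and other interspersed repeats, tandem repeats, tRNA and snoRNA genes, and copies of mRNAs, ribosomal RNA and mitochondrial DNA that were inserted in the past. A read from the abundant RNA and a read from its intronic copy can be the same letters.

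Both patterns described in the following paragraphs, windows that hold CACAC and copies of other RNAs, are shown here by their sequences. The first 5 are summit windows, reaching 50 nt to each side, on the gene strand (hg38) from deep intronic peaks that overlapped between the lists, had no sequence match as defined further on, and held CACAC in both replicates, ranked by the lower of their 2 within-list fold percentiles. Capitals mark CACAC, which occurs once in the TBC1D22A window and repeatedly or in longer runs in the others. They lie at chr22:47168428-47168528 (TBC1D22A), chr17:812949-813049 (NXN), chr7:47499916-47500016 (TNS3), chr18:12478616-12478716 (SPIRE1) and chr21:42662501-42662601 (PDE9A).
TBC1D22A: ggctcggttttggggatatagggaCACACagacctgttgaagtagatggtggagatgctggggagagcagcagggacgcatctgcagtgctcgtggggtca
NXN: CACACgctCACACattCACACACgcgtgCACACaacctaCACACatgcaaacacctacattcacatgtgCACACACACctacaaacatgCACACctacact
TNS3: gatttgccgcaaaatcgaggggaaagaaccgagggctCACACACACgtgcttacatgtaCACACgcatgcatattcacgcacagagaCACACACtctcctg
SPIRE1: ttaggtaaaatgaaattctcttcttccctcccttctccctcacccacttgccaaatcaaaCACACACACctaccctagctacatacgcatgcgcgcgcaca
PDE9A: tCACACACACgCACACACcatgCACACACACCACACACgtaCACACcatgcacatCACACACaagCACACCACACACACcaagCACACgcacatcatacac

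The next windows come from the 3 overlapping peaks classed as tandem repeats in replicate 1 that rank highest in the same way, in CMIP (chr16:81550788-81550888), TIMP2 (chr17:78893277-78893377) and B3GNTL1 (chr17:82984356-82984456). The replicate 2 peak was also a tandem repeat in CMIP and B3GNTL1, and in TIMP2 it had no match. Capitals mark every base covered by any 12-mer repeated within the window.
CMIP: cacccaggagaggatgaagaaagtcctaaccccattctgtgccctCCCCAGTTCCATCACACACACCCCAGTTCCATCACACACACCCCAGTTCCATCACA
TIMP2: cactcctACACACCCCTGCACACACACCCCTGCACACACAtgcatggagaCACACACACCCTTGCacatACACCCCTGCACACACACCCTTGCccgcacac
B3GNTL1: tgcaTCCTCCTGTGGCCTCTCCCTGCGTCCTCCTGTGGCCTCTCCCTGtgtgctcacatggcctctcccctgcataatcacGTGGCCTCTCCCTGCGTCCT

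Most of the deep intronic peaks with the largest fold carried copies of other RNAs, as counted further on. Shown are 60 bases from each of 2 peaks like 28S ribosomal RNA, in UNC45B (chr17:35151197-35151256) and HFM1 (chr1:91387506-91387565), each above the matching bases of the 45S precursor gene RNA45SN1 (RefSeq, GRCh38.p14), with differing bases in capitals. The bases of both peaks are printed on the minus strand of hg38, which is the gene strand in HFM1 and the opposite strand in UNC45B. The rRNA stretches are bases 7925 to 7984 and 12110 to 12169 of the precursor. Of the 60 bases, 2 differed in UNC45B and 1 in HFM1.
UNC45B: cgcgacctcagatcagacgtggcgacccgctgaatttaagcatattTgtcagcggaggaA
RNA45SN1: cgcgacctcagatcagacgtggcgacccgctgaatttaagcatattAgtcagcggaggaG
HFM1: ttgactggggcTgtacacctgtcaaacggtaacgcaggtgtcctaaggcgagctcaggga
RNA45SN1: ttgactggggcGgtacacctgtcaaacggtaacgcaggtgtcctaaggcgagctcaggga
The peak in PDZRN4 (chr12:41363664-41363723) held 60 bases without a difference from the mitochondrial gene MT-ND1 (bases 3791 to 3850 of the mitochondrial genome), 93 bp from the summit. They are printed on the minus strand of hg38, opposite to the gene.
PDZRN4: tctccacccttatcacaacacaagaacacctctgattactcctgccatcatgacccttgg
In ARMH4 the peak covered the tRNA gene TRK-CTT1-1 (RefSeq), whose 73 bases are in capitals within chr14:58239881-58239981 (plus strand).
ARMH4: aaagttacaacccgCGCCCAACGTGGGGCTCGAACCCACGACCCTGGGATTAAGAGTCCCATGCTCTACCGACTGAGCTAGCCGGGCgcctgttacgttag
Copies of mRNA 3′ UTRs are shown by 30 bases at the summit, which had 0 differences from the 3′ UTR they match: RAB1B for the peak in RMDN2 (chr2:37930927-37930956) and SET for that in PARD3 (chr10:34391278-34391307). Both are printed on the minus strand of hg38, which is the gene strand in PARD3 and the opposite strand in RMDN2.
RMDN2: cctgccgccctctgccctgccagagacaga
PARD3: atattgggctcagagagtacactgtgtctc

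To see where these peaks sit, their number was set against the size of the deep intronic part of the genome. It spans 1003 Mb, against 109 Mb of exons of protein-coding genes. Deep intronic peaks numbered 0.575 per Mb in replicate 1 and 0.430 in replicate 2, whereas peaks overlapping exons of protein-coding genes numbered 162 and 164 per Mb of exon. The median distance to the nearest exon was 3905 bp in replicate 1 and 4111 bp in replicate 2, and the longest was 197890 bp. The peaks fell in 481 and 370 host genes. Most hosts had 1 such peak (415 and 331 genes), and 16 and 7 hosts had 3 or more. In 33 and 24 cases more than 1 protein-coding gene spanned the peak, and the longer gene was taken as host. For 45 and 24 peaks genes of both strands lay under the peak. The files give no strand, so that RNA from either strand could be the source.

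The position within introns was set against intron bases counted gene by gene, without 500 bp at each end of an intron. Exons of other genes were not taken out and overlapping genes were each counted, so these bases are not the 1003 Mb above. First introns held 14.2% (11.6 to 17.3) and 13.9% (11.0 to 17.5) of the deep intronic peaks and 15.1% of the bases counted in this way. Introns of at least 10 kb held 78.0% and 76.8% of the peaks and 76.9% of the bases. Introns of at least 100 kb held 12.3% (9.87 to 15.2) and 14.2% (11.2 to 17.8) of the peaks, below the 18.6% of the bases. By chromosome, 47 and 35 peaks were on chromosome 17, where its share of the 1003 Mb gives 17.1 and 12.7. Chromosome 13 had 30 and 27 against 15.6 and 11.6, chromosome 7 had 56 and 36 against 36.1 and 27.0, and chromosome 8 had 40 and 41 against 28.7 and 21.4. Single genes held part of these counts. On chromosome 13, 7 and 12 of the peaks lay in NALF1 and 3 and 2 in MCF2L. On chromosome 7, 9 and 7 lay in PTPRN2 and 3 and 2 in ESYT2. Chromosomes 5 (15 and 10 against 32.4 and 24.2) and 3 (28 and 24 against 46.1 and 34.4) had fewer.

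Of the host genes, 297 of 481 in replicate 1 (61.7%, 57.3 to 66.0) and 250 of 370 in replicate 2 (67.6%, 62.6 to 72.1) also had a peak on an exon of their own in the same list. Over all protein-coding genes this share was 37.3% and 39.0%. The share was not adjusted for gene length. All 6 epithelial markers (EPCAM, KRT8, KRT18, KRT19, CDH1, ERBB2) had an exonic peak in both lists. Of VIM, COL1A1, PECAM1 and PTPRC, markers of other cell types, 0 of 4 had one in replicate 1 and 1 of 4 (COL1A1) in replicate 2. None of these 10 genes had a deep intronic peak.

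The first test asked whether the deep intronic peaks were found again in the other replicate. They were found again less often than other peaks. In replicate 1, 180 of 577 (31.2%, 27.6 to 35.1) shared 1 bp or more with a peak of replicate 2, against 60.9% of the other annotated peaks. In replicate 2, 180 of 431 (41.8%, 37.2 to 46.5) overlapped a peak of replicate 1, against 61.6%. The background over all annotated peaks was 60.1% and 61.2%. The difference averaged -24.8 percentage points (SD 6.95, n = 2), with an adjusted p of 1.89e-44 in replicate 1 and 7.61e-16 in replicate 2 (Fisher's exact test, two-sided, Benjamini-Hochberg over 22 tests). Overlap is shared by both lists, with 177 of the 180 overlapping peaks the same pairs, so the replicate 2 test is not independent of the first. These tests take peaks as independent and describe these 2 lists. The 176 and 147 intronic peaks nearer to an exon overlapped about as often, at 34.1% and 41.5% (adjusted p = 0.759 and 1.00, Fisher's exact test). The difference from them was -2.90 and 0.267 points. Of the peaks over 500 bp from any gene, 46.7% and 55.6% overlapped the other list, more than of the deep intronic peaks (adjusted p = 1.91e-06 and 2.73e-04, Fisher's exact test).

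Fewer reads lay under these peaks. The read pileup at the summit, recovered from the deposited fold and p-value, had a median of 14 reads in both replicates, against 23 and 22 in the other peaks. It was at or above the list median of 22 in 26.5% of the deep intronic peaks of replicate 1 and 18.8% of replicate 2, against 53.1% and 51.4% of the others (adjusted p = 2.12e-36 and 1.35e-42, Fisher's exact test). The background was 52.3% and 50.7%. Overlap between lists rose with the pileup in deep intronic and in other peaks, so it was also compared within ranges of pileup. With 10 to 19 reads, 28.5% of 256 deep intronic peaks of replicate 1 overlapped replicate 2, against 48.0% of the other peaks. With 20 to 39 reads the values were 34.2% of 114 against 65.5%, and with 40 or more they were 67.2% of 61 against 83.7%. In replicate 2 the same ranges gave 44.3% against 50.2%, 54.3% against 65.4% and 78.1% against 84.4%. The intervals of the deep intronic and other peaks did not overlap in any range in replicate 1, whereas in replicate 2 they were apart only at 4 to 9 reads. With only peaks at or above the median pileup, the shares were 45.8% against 74.3% and 64.2% against 74.6% (adjusted p = 3.48e-13 and 0.0488, Fisher's exact test). This last comparison was chosen after the data were seen.

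**Figure D1:**
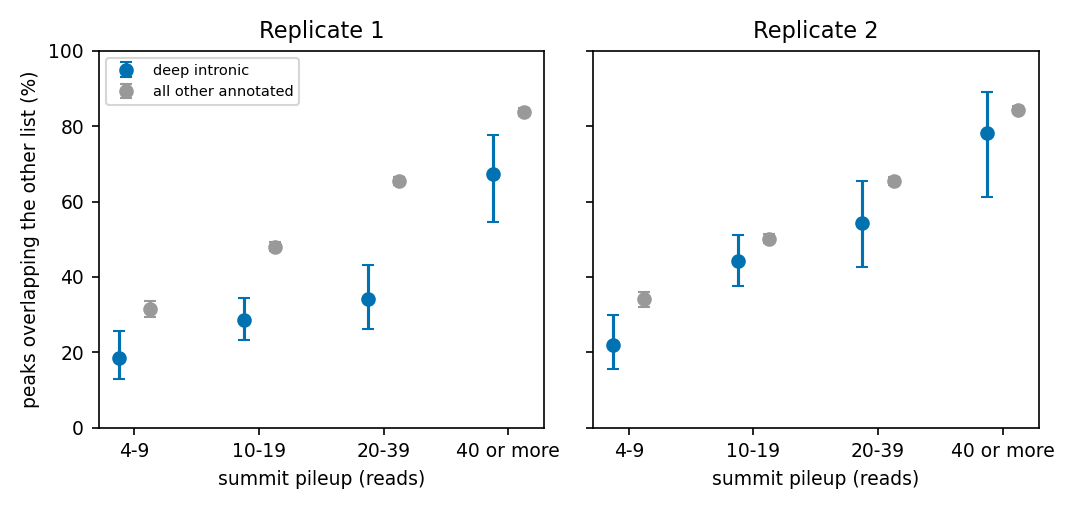
Share of peaks that overlap the other list (y axis, %) by the read pileup at the summit (x axis, reads) for deep intronic peaks (blue) and all other annotated peaks (grey), with 95% Wilson intervals. The deep intronic points lie below the others in each range, at 18.5% against 31.4% with 4 to 9 reads in replicate 1 and at 21.9% against 34.1% in replicate 2.

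Fold enrichment was lower as well. Its median was 6.19 (quartiles 5.38 and 7.45) in replicate 1 and 6.51 (5.77 and 7.56) in replicate 2, against 6.91 and 7.15 in the other peaks. The upper quartile of the list, 8.58 and 9.03, was reached by 15.1% and 11.6% of deep intronic peaks and by 25.3% of the others in both replicates (adjusted p = 1.00e-08 and 6.74e-12, Fisher's exact test). Of the near-exon intronic peaks 15.3% and 10.9% reached it (adjusted p = 0.995 and 0.995 against the deep intronic peaks, Fisher's exact test). By construction the background was 25.0% and 25.0%. The highest values, 26.5 and 26.3, were near the largest of all peaks (27.7 and 27.4). Peaks were also narrower, with 36.4% and 26.9% at or above the median width of 336 and 342 bp, against 50.5% and 50.7% (adjusted p = 3.90e-11 and 1.51e-22, Fisher's exact test, background 50.2% and 50.2%). For width, near-exon intronic peaks had 38.6% and 36.1% (adjusted p = 0.816 and 0.0914 against the deep intronic peaks, Fisher's exact test). A wide peak has more chance of touching an exon, so the rule itself bounds the width.

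Summit sequences of these peaks were more often repeated in the genome. The 31 bases at the summit occurred more than once in the genome for 20.1% and 22.0% of the deep intronic peaks, against 8.88% and 7.84% of the others (adjusted p = 1.46e-15 and 4.85e-19, Fisher's exact test, background 9.19% and 8.13%). The study's methods allowed reads that align to several places, but the submitters' notes name another aligner. How such reads were placed in these lists is therefore not known. Near-exon intronic peaks had 19.9% and 18.4% (adjusted p = 1.00 and 0.648, Fisher's exact test), and peaks far from genes 29.9% and 26.9% (adjusted p = 8.68e-04 and 0.157).

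Each deep intronic peak was then compared by BLAST with the spliced transcripts of other genes, the mitochondrial genome, 45S rRNA and tRNA genes. The classes were set after the data were seen and are described without a test. A small RNA gene lay under or matched 6 and 8 peaks, mitochondrial DNA matched 10 and 7, and 45S rRNA matched 22 and 22. A further 74 and 54 matched transcripts of at most 10 other genes over at least 100 bp at 90% identity or more, called few-gene copies here. Weaker matches to more genes did not remove a peak from this class, so it can also hold interspersed repeats. In 33 and 32 of these peaks the summit 31-mer occurred more than once in the genome, and in a peak of replicate 2 it occurred 58744 times. Transcripts of more genes, as interspersed repeats give, were matched by 127 and 108, called many-gene repeats. Tandem repeats, with fewer than 70% distinct 12-mers in the peak, numbered 53 and 27, and 285 and 205 peaks (49.4% and 47.6%) had no match. Small RNA genes, mitochondrial and ribosomal matches and few-gene copies together made up 112 of 577 (19.4%) and 91 of 431 (21.1%) of the peaks. The same share was 47 of 176 (26.7%, 20.7 to 33.7) and 36 of 147 (24.5%) in near-exon intronic peaks, and 197 of 458 (43.0%) and 169 of 387 (43.7%) in peaks far from genes, which were higher values than in the deep intronic peaks and were not tested. In the deep intronic peaks they made up 60 of 180 (33.3%) and 63 of 180 (35%) of those that overlapped the other list.

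These matches gathered at the top of the fold scale. Of the 20 deep intronic peaks with the largest fold enrichment, 18 in replicate 1 and 17 in replicate 2 matched another RNA in this sense, and 20 and 19 of the 20 overlapped the other list. Among the peaks above the upper quartile of fold, ribosomal matches were 15 of 144 and 18 of 108, and few-gene copies 37 and 19. Among those below the lower quartile there was 1 ribosomal match in each replicate, and few-gene copies numbered 6 and 6. In fold, the peaks without a match reached 13.4 in replicate 1 and 12.8 in replicate 2, with lowest values of 2.53 and 1.95.

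**Figure D2:**
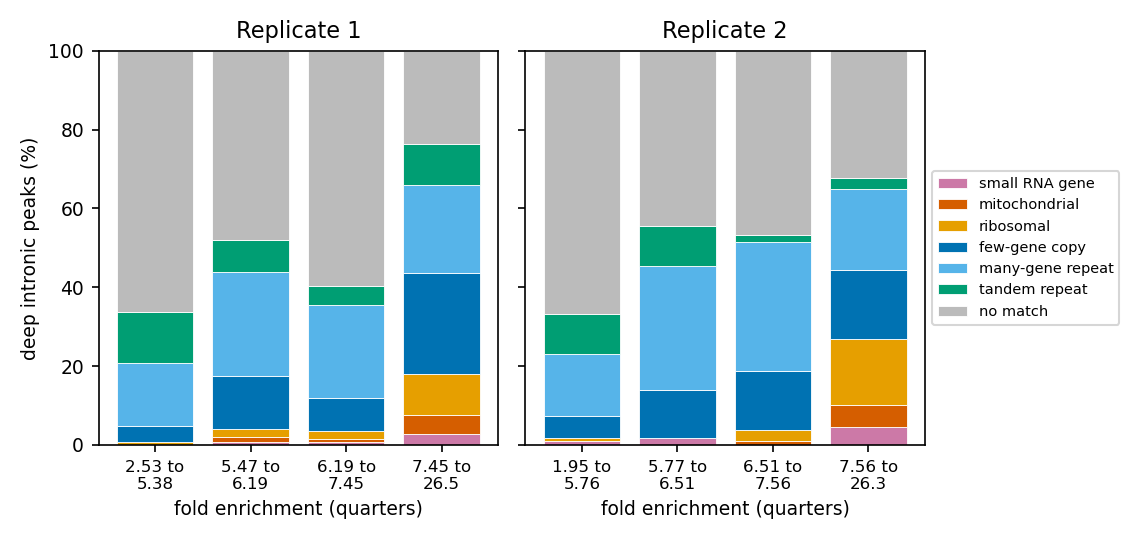
Sequence classes (colours, % of deep intronic peaks on the y axis) in the 4 bins between quartiles of fold enrichment (x axis, lowest to highest fold of each bin) for each replicate. In the top bin 15 of 144 and 18 of 108 peaks were ribosomal matches, against 1 in the bottom bin of each replicate.

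By class, ribosomal matches overlapped in 20 of 22 cases in replicate 1 (90.9%, 72.2 to 97.5) and 21 of 22 in replicate 2 (95.5%, 78.2 to 99.2). Peaks without a match overlapped in 22.8% (18.3 to 28) and 34.1% (28 to 40.9), and many-gene repeats in 27.6% and 27.8%. Few-gene copies stood at 37.8% (27.6 to 49.2) and 57.4% (44.2 to 69.7), tandem repeats at 37.7% and 63.0%. Without small RNA genes, mitochondrial and ribosomal matches and few-gene copies, 120 of 465 (25.8%) and 117 of 340 (34.4%) of the deep intronic peaks overlapped the other list.

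For 177 peaks of replicate 1 the overlapping peak of replicate 2 was also deep intronic. Across these pairs the fold enrichments had a Spearman correlation of 0.580 and the pileups 0.75, as a description, since pairs share the sequence and the background of their place. The summits lay within 50 bp of each other in 96 of 177 pairs (54.2%), with a median gap of 37 bp. Both folds were at least 10 in 26 pairs, and 21 of these matched another RNA.

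**Figure D3:**
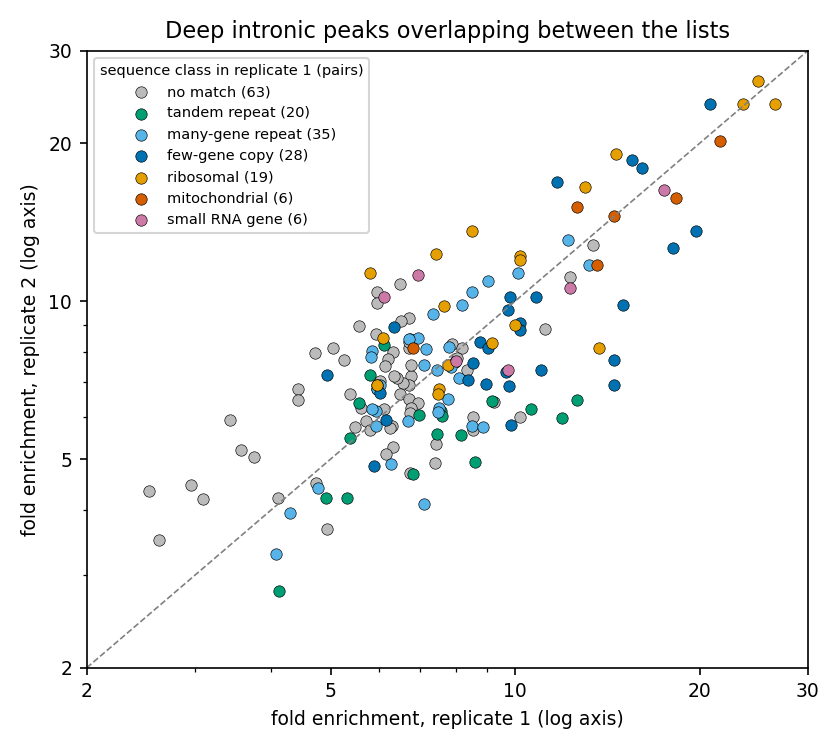
Fold enrichment in replicate 1 (x axis) and replicate 2 (y axis), both on log axes, of the 177 pairs of overlapping deep intronic peaks, coloured by sequence class, with the line of equal values dashed. The pairs with fold of at least 10 in both replicates number 26, of which 21 are ribosomal, mitochondrial, small RNA or few-gene matches.

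The ribosomal matches were mostly to 28S rRNA, the large RNA of the large ribosomal subunit, with 19 of 22 and 18 of 22 peaks. The others, 3 and 4, matched 18S rRNA of the small subunit. The leading pairs named here are the 15 overlapping pairs, 1 per gene, with the largest lower within-list percentile of fold. UNC45B, a myosin chaperone gene, held the pair that ranked first, at chr17:35151141-35151558 in intron 4. Its fold was 24.9 in replicate 1 and 26.3 in replicate 2, with pileups of 96 and 142 reads, and the rRNA match was 98.3% over 116 bp in the orientation opposite to the gene. In SLCO5A1, an organic anion transporter family gene on chromosome 8, the fold was 26.5 and 23.8 with 120 and 102 reads. HFM1, a meiotic helicase gene, had 23.5 and 23.7 with 103 and 105 reads, and its summit 31-mer occurred 8 times in the genome in both replicates. PID1 gave 14.6 and 19.1, and GCNT1, a glycosyltransferase gene whose stretch was only 84.3% identical to 28S rRNA, gave 13.0 and 16.5. The study's methods set aside reads that matched pre-rRNA before alignment. The submitters' notes name other programs, so whether this step was applied to these lists is not known. The summit lay inside the matched stretch in 11 of 22 and 13 of 22 ribosomal cases. In UNC45B the printed bases are 105 bp from the summit.

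Mitochondrial matches, nuclear copies of mitochondrial DNA, were fewer but strong. PDZRN4, a ubiquitin ligase family gene, had a fold of 21.6 and 20.2 with 58 and 49 reads, and 68 bp at 100% identity to MT-ND1, a subunit gene of respiratory complex I. In VPS13B on chromosome 8, a lipid transfer protein gene, the fold was 18.3 and 15.7, with 98.7% identity over 77 bp to MT-CYB. ENSG00000285329 on chromosome 16 had 14.5 and 14.5 over sequence like the mitochondrial 16S rRNA gene MT-RNR2, at 78.4% identity, where RefSeq places MTRNR2L4. PPM1L, a phosphatase gene, had 12.6 and 15.1, also like MT-RNR2. These 4 were matched in both replicates, and 6 of 10 and 6 of 7 mitochondrial matches overlapped the other list. The summit lay inside the matched stretch in 5 of 10 and 5 of 7 of them.

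Small RNA genes of RefSeq that are not among the GENCODE exons used for the rule lay under a few peaks. The peak at the lysine tRNA gene TRK-CTT1-1 in intron 2 of ARMH4 had a fold of 17.5 with 37 reads in replicate 1 and 16.3 with 33 reads in replicate 2. Its interval began in replicate 1 at the first base of the tRNA gene, chr14:58239895, and the summit was 93 bp from that gene. A second lysine tRNA gene, TRK-CTT1-2 in MORF4L1, had 8.01 and 7.69, and a copy of the glycine tRNA gene TRG-TCC2-1 in ENSG00000289768 had 12.3 and 10.6. The snoRNA gene SNORD133 in LARP4 (6.94 and 11.2) was covered in both replicates. SNORD147 in PLEKHA7 (4.35), SNORD148 in GPT2 (5.79) and the tryptophan tRNA gene TRW-CCA2-1 in SLC47A1 (5.79) had a peak only in replicate 2. Genes outside the 15 leading pairs in this paragraph were named after their values were seen.

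The few-gene copies matched mostly the ends of mRNAs. Of 74 copies in replicate 1, 62 matched a protein-coding gene, 42 of them within its 3′ UTR, 8 on coding sequence and 5 on the 5′ UTR. In replicate 2 these numbers were 46 of 54, with 30, 5 and 3. The median identity was 95.5% and 95.1% over a median of 298 and 294 bp. Only 2 and 1 of the alignments ran across an exon junction of the matched transcript, and 9 and 8 of the peaks lay on a pseudogene of RefSeq. The copy ran along the host gene in 31 and 25 cases and against it in 43 and 29. The matched protein-coding genes numbered 59 and 45, of which 46 (78.0%, 65.9 to 86.6) and 31 (68.9%, 54.3 to 80.5) had an exonic peak of their own in the same list, beside 37.3% and 39.0% of all protein-coding genes. At the matched stretch itself 23 of 74 and 15 of 54 had a peak. The next counts take all copies, with the 12 and 8 that matched a non-coding gene. Copies of a gene with an exonic peak overlapped the other list in 24 of 50 and 25 of 34 cases, and those of a gene without one in 4 of 24 and 6 of 20. Of the 50 and 34, 49 and 32 matched a protein-coding gene, so most non-coding matches are among the copies of a gene without an exonic peak. The 2 groups thus also differ in the kind of matched gene. The part that reads of the matched gene have in these peaks was not tested.

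Of the 15 leading pairs, 4 were such copies, of which 3 are described here. RMDN2, with a copy of the RAB1B 3′ UTR (96.3% over 459 bp), had 16.1 and 17.9. RABGAP1 had 15.5 and 18.6 over sequence of the NFE2L1 3′ UTR, a stress-response transcription factor gene (99.2% over 390 bp), and PARD3, a cell polarity gene, had 19.7 and 13.6 over that of SET, a histone chaperone gene (97.9% over 422 bp). In these 3 the matched gene had an exonic peak in replicate 1. The last of the 15 leading pairs, in SHROOM2, an actin-binding protein gene on the X chromosome, had 12.2 and 13.1 and was a many-gene repeat.

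Sequence around the summits was next compared with that of exonic peaks and with the deep intronic sequence as such. CACAC was more frequent in deep intronic than in exonic peaks. It was searched on the gene strand in the window of 50 nt to each side of the summit. In replicate 1, 153 of 577 windows held it (26.5%, 23.1 to 30.3) and in replicate 2, 95 of 431 (22.0%, 18.4 to 26.2), against 10.8% and 10.3% of the peaks overlapping exons of protein-coding genes. The difference averaged 13.7 points (SD 2.78, n = 2; adjusted p = 6.78e-24 and 6.74e-12, Fisher's exact test). Of 489160 windows of the same length tiled over deep intronic sequence, 8.41% held CACAC on the gene strand. Near-exon intronic peaks had 26.7% and 19.0%.

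The mirror motif GTGTG, which is CACAC on the other strand, was in 13.5% (11.0 to 16.6) and 15.1% (12 to 18.8) of the deep intronic windows and in 10.6% of the tiled windows. The intervals of CACAC and GTGTG were apart in replicate 1 and overlapped in replicate 2. The longer run CACACACACA was in 7.11% (5.28 to 9.50) and 5.10% (3.39 to 7.61) of deep intronic windows, 0.289% and 0.213% of exonic windows and 0.316% of tiled windows. CACAC was in 50.9% and 48.1% of the tandem repeats and in 27.0% (22.2 to 32.5) and 24.9% (19.5 to 31.2) of the peaks without a match. It was in 27.6% and 16.7% of the many-gene repeats, 9.09% and 13.6% of the ribosomal matches and 14.9% and 14.8% of the few-gene copies. The longer run was in 16.5% and 10.2% of the many-gene repeats, 11.3% and 7.41% of the tandem repeats and 4.56% and 3.90% of the peaks without a match. Without the tandem repeat class, CACAC was in 24.0% and 20.3% of deep intronic windows (adjusted p = 1.46e-16 and 1.16e-08, Fisher's exact test). That class held 53 and 27 peaks, whereas 74 and 32 deep intronic peaks met the tandem repeat measure whatever their other matches. Those placed in other classes stayed in, and the share without all of them was not tested. Of 60 pairs without a match in either replicate, 18 held CACAC in both summit windows, among them those of TBC1D22A, NXN, TNS3, SPIRE1 and PDE9A printed above. In these 5 pairs the fold was 6.01 to 6.70 in the first list and 6.23 to 8.36 in the second, with 11 to 43 and 12 to 16 reads, below the folds of 23.5 to 26.3 in UNC45B and HFM1.

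**Figure D4:**
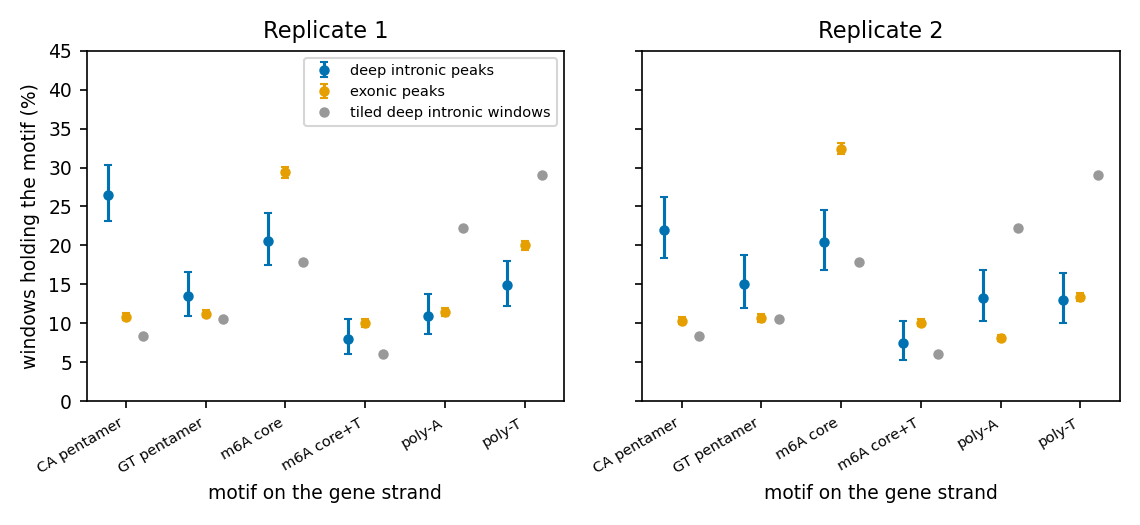
Share of summit windows (50 nt to each side) that hold each motif on the gene strand (y axis, %) in deep intronic peaks (blue), exonic peaks (orange) and windows tiled over deep intronic sequence (grey, the same in both panels), with 95% Wilson intervals for peaks. CA and GT pentamer are CACAC and GTGTG, m6A core is GGAC, m6A core+T is TGGAC, and poly-A and poly-T are AAAAA and TTTTT. The CA pentamer is at 26.5% and 22.0% in deep intronic peaks and at 8.41% in tiled windows.

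GGAC, the core of the sequence in which m6A is placed, was less frequent than in exonic peaks. It was in 20.6% (17.5 to 24.1) and 20.4% (16.9 to 24.5) of deep intronic windows, against 29.4% and 32.4% of exonic windows (adjusted p = 4.72e-06 and 1.08e-07, Fisher's exact test), and in 17.9% of tiled windows. The longer TGGAC, which contains GGAC, was in 7.97% and 7.42% against 10.0% and 10.1% and did not pass the threshold (adjusted p = 0.132 and 0.0854, Fisher's exact test). The difference averaged -2.35 points (SD 0.438, n = 2), and with windows of 100 nt to each side it was -5.74 points and passed (larger adjusted p = 0.00421, Fisher's exact test). AAAAA was in 10.9% and 13.2% of deep intronic windows against 11.4% and 8.11% (adjusted p = 0.827 and 4.88e-04), and TTTTT in 14.9% and 13.0%, which was -5.08 and -0.392 points from exonic windows (adjusted p = 0.00316 and 0.886), so neither passed in both replicates (Fisher's exact test). In the tiled windows AAAAA and TTTTT were in 22.2% and 29.1%.

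The GC content of the windows was at least 50% in 45.2% and 57.3% of deep intronic peaks, against 50.1% and 67.8% of exonic peaks (adjusted p = 0.0272 and 1.03e-05, Fisher's exact test). Of the near-exon intronic peaks 55.7% and 61.2% reached it, which was not tested, and of the tiled windows only 19.9%. The mean in deep intronic peaks was 47.9% ± 10.1 (SD over 577 peaks) and 51.1% ± 10.5 (SD over 431 peaks). In replicate 2 all kinds of peak were richer in GC, with exonic means of 50.3% and 56.2%. Without small RNA, mitochondrial, ribosomal and few-gene matches the share in replicate 1 was 50.3%, and the difference from exonic peaks no longer passed (adjusted p = 0.963, Fisher's exact test). In replicate 2 the share was then 61.5% against 67.8% of exonic peaks, which still passed (adjusted p = 0.0224, Fisher's exact test).

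Tandem repeats were frequent among deep intronic peaks. Counting every peak whatever its other matches, 74 of 577 (12.8%, 10.3 to 15.8) in replicate 1 and 32 of 431 (7.42%, 5.31 to 10.3) in replicate 2 had fewer than 70% distinct 12-mers. Of the exonic peaks 0.198% and 0.174% did, of the near-exon intronic peaks 6.25% and 4.76%, and of those far from genes 6.11% and 3.62%. The measure was chosen after the data were seen and was not tested. The smaller tandem repeat class, which leaves out peaks placed in another class, was GC-rich, with at least 50% GC in 48 of 53 and 23 of 27 windows.

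The 10 host genes with the most deep intronic peaks over both lists spanned 83.6 to 1049 kb. NALF1, an auxiliary subunit gene of the sodium leak channel on chromosome 13 (chr13:107163510-107867496, minus strand), had 7 in replicate 1 and 12 in replicate 2, or 27.4 per Mb of its own deep intronic sequence over both lists. All lay in its first intron of 654926 bp. Their fold ran from 4.90 to 8.28 with 12 to 32 reads. Only 3 of 7 and 3 of 12 overlapped the other list, with folds of 7.90, 6.25 and 6.27 in replicate 1 and of 8.28, 5.73 and 4.90 in replicate 2. Of its 19 peaks 16 had no match, all summit 31-mers occurred once in the genome, and 4 windows held CACAC.

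**Figure D5:**
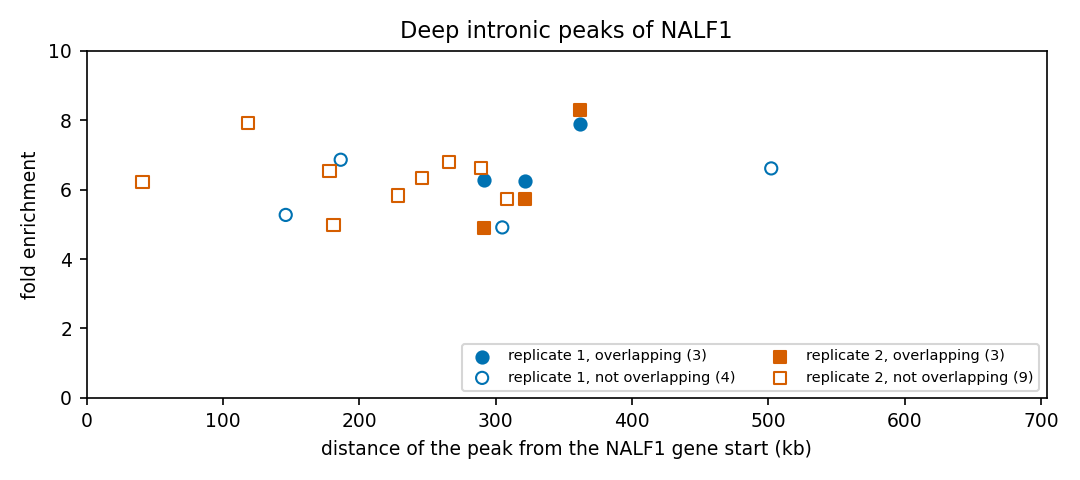
Deep intronic peaks of NALF1 by distance from the gene start (x axis, kb) and fold enrichment (y axis) in replicate 1 (circles) and replicate 2 (squares), filled where the peak overlaps the other list. The 19 peaks have folds of 4.90 to 8.28, and 3 in each replicate overlap.

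PTPRN2, a gene for a receptor phosphatase family protein of secretory vesicles on chromosome 7, had 9 and 7 deep intronic peaks in 7 introns. Of these 16 peaks 7 were tandem repeats, and 4 in each replicate overlapped the other list. The deepest, at chr7:158070812-158072303, had 142 reads in replicate 1 and 121 in replicate 2, with folds of 6.97 and 6.07. RASEF, a small GTPase gene on chromosome 9, was the densest of the 10 leading hosts, with 4 and 2 peaks in 1 intron of 28738 bp, or 97.3 per Mb. Its folds were low, from 2.53 to 5.20, but its pileups were 40 to 71 reads, and 2 of 4 and 2 of 2 overlapped. TRAPPC9, a vesicle tethering gene on chromosome 8, had 4 and 4. ESYT2, EXD3, MCF2L, RPH3AL, SHANK2 and SLC20A2 had 5 each over both lists. In MCF2L, a guanine nucleotide exchange factor gene, 1 peak reached 225 reads, the most of any deep intronic peak of replicate 1. Each of these 10 genes also had an exonic peak in both lists, beside 61.7% and 67.6% of all hosts and 37.3% and 39.0% of all protein-coding genes. The 10 were chosen by their number of peaks, and this was not adjusted for gene length or tested.

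The genes that the study followed had no deep intronic peak. For CDC25A, CCNE2, CDC6, CDK4, CHEK2, E2F1, E2F3, WEE1, MYC, CCND1, IGF2BP1, IGF2BP2 and IGF2BP3 the number was 0 in both replicates. Their deep intronic sequence of 481 kb in all gives 0.276 and 0.207 peaks at the density of all deep introns, so 0 is the background value. Their deep intronic sequence differs widely, from 0 kb in MYC and 15.8 kb in CDC25A to 79.6 kb in E2F3, 133 kb in IGF2BP3 and 160 kb in IGF2BP2.

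Values next to the distance limit were as follows. Just inside it, the peaks in GTPBP1 (505 bp from an exon) and TOM1 (506 bp) of replicate 1 had folds of 6.72 and 4.87, and those in PSMB7 (516 bp) and ENSG00000287725 (520 bp) of replicate 2 had 2.71 and 6.65. Just outside it, UBE2E1 (499 bp) and ENSG00000283809 (494 bp) of replicate 1 had 8.96 and 3.19, and KCNH4 (493 bp) and KMT2E (492 bp) of replicate 2 had 6.99 and 8.50.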

How the data were processed

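LACE-seq peaks of 2 IGF2BP3 libraries from OE-19 cells were analysed. The submitters' processing notes name fastp, HISAT2, MACS2 and hg38, with no versions given. The study's methods instead name Bowtie, after removal of reads matching pre-rRNA and with reads placed at several positions allowed, and Piranha. The deposited files have the narrowPeak layout of MACS, 1 list per replicate, in which the authors give a fold enrichment over local background (a ratio) and the −log10 p-value and −log10 q-value of each peak. Peaks carry no strand and were given that of the longest gene spanning them. Reads per library are not known, so the depth is known only per peak.

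Python 3.11.15, pandas 2.3.3, SciPy 1.17.1, pysam 0.24.0 and BLAST 2.17.0+ were used. Distances were measured to GENCODE 44 exons. The read pileup at each summit was recovered from the fold and −log10 p-value (largest error 2.77e-04 on the −log10 scale). Shares were compared in each replicate by two-sided Fisher's exact tests, adjusted by Benjamini-Hochberg over 22 tests, and called where the adjusted p was under 0.05 in both replicates in the same direction. Values are means over replicates with SD. Intervals are 95% Wilson intervals and cover counting error only. Peaks in 1 gene are not independent, and p-values describe these lists. Mitochondrial and ribosomal matches needed 75% identity over 50 bp, tRNA matches 90% over 40 bp and transcript matches 90% over 100 bp, all at an e-value of at most 1e-10 where BLAST gave one. Tiled windows of the same length as summit windows were spaced 2020 nt apart. Tests were checked on simulated data with independent peaks and overlaps, so the check does not cover peaks that share a gene or overlap shared by both lists. Alternatives covered the distance, summits, uniquely placed summits, stricter peaks, other comparators, windows, strand, 1 peak per gene and single replicates. Named genes were the hosts of the 15 leading pairs, the 10 hosts with most peaks and the genes followed by the study. Members and lists were chosen with earlier results of these data known. The results for 2 host genes are not reported here.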

Additional observations from a re-analysis of the deposited data

Results flagged for a closer look

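Outside the annotated chromosomes, 82 peaks lay on scaffolds without gene annotation, 46 in replicate 1 and 36 in replicate 2, and entered no comparison. They are given because they are signal that no comparison used. Of these, 25 in each list overlapped the other list, and their folds were 2.79 to 15.9 in the first list and 2.87 to 13.3 in the second. There was no control library to set them against.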

How the results depend on the processing

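Of 162 alternative values of the tested results, 146 kept their direction and their side of the threshold, 7 lost the call, 3 gained one and 6 changed sign. Values are differences in percentage points. Against intronic peaks near exons, the differences were -1.31 for overlap with the other list, 0.227 for fold, -5.69 for width and 1.95 for multicopy summits, none past the threshold. Against peaks far from genes they were -0.345 for pileup, 6.77 for width and -7.32 for multicopy summits. GC content lost its call with the summit alone in the intron (-7.15), with 51-nt windows (-7.92) and, in an alternative chosen after seeing the data, without matches to other RNAs (-3.06). TGGAC passed with windows of 100 nt to each side of the summit (-5.74). TTTTT turned to 0.676 on either strand and to 2.11 with 1 peak per gene. With single replicates AAAAA ranged from -0.481 to 5.11 and TTTTT from -5.08 to -0.392. The cause of these changes was not tested. With limits of 2000 and 5000 bp the members numbered 367 and 247 in replicate 1 and 273 and 188 in replicate 2. Also chosen after seeing the data, few-gene copies numbered 126 at 80% identity in replicate 1 and 34 at 95% in replicate 2, and tandem repeats 35 at under 60% distinct 12-mers in replicate 1. No paired analysis was possible because both libraries belong to 1 group. With few reads under most of these peaks, absence from a list does not show absence of signal, and without an input library enrichment over input is not known.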

Other observations

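Deep intronic peaks that overlapped the other list held CACAC in 28.9% (22.8 to 35.9) of windows in replicate 1 and 30% (23.8 to 37.1) in replicate 2. Those that did not overlap held it in 25.4% (21.4 to 29.9) and 16.3% (12.3 to 21.4), so the intervals were apart in replicate 2 and overlapped in replicate 1. The split uses the overlap itself and was not tested.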
